A study of Mus musculus with 13 samples.

Results

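The cyclins, cyclin-dependent kinases, kinase inhibitors and Rb family proteins that act in the G1 phase of the cell cycle were examined in C2C12 cells, a mouse myoblast line that divides in rich medium and leaves the cell cycle to form myotubes when serum is lowered. The 10 genes were Ccnd1, Ccnd2, Ccnd3, Ccne1, Cdk4, Cdk6, Cdkn1b, Cdkn2c, Rb1 and Rbl1. Their rows were found by gene name, and each name matched 1 of the 23236 rows of a gene-level expression table. The genes were chosen with earlier results of these data known. The series holds 13 samples of this line, 4 RNA-seq and 9 ChIP-seq libraries by their labels. Only the RNA-seq libraries siNC and siLinc-Yy1 were used, and both are labelled as myoblasts with RNA selected for poly(A). By the usual reading of such names, siNC received a control siRNA, and siLinc-Yy1 one that targets Linc-Yy1, a noncoding RNA transcribed beside the gene Yy1. Of dose, time after transfection and siRNA sequence, the sources used here give none. Each condition has 1 library of 1 cell line, so differences have no replicate check and describe this pair of libraries.

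D-type cyclins are made in response to growth factors and activate the kinases Cdk4 and Cdk6. These kinases phosphorylate the Rb family of pocket proteins, which otherwise hold E2F transcription factors in check, and released E2F drives genes such as cyclin E that carry the cell into S phase. Inhibitors of the INK4 class, such as the product of Cdkn2c, bind Cdk4 and Cdk6, while the Cip/Kip inhibitor encoded by Cdkn1b acts mainly on cyclin E with Cdk2. In myoblasts this switch decides between further division and permanent exit into differentiation, and much of it works through protein stability and phosphorylation, which RNA levels do not show.

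Levels are in FPKM, sequenced fragments per kilobase of a transcript after scaling to library size, so values of different genes can be compared within a library. The steps of low values in single-exon receptor rows put siNC at 1.40 times the depth of siLinc-Yy1. At these depths the lowest level among the 10 genes, Rb1 at 8.77 FPKM in siLinc-Yy1, rests on about 374 fragments per kilobase of transcript, with an exact Poisson interval (95%, counting error only) of 337 to 414. The targeted RNA could not be checked at this depth: the row lincYy1 stood at 0.360 FPKM (siNC) and 0.227 FPKM (siLinc-Yy1), about 25 and 11 fragments, with a q-value of 0.878 in the authors' deposited table. All 6 myoblast markers examined, among them Myod1, Myf5 and Des, were at 18.8 FPKM or more in both libraries. Of 10 markers of blood, endothelial, epithelial, liver, fat and nerve cells, 7 were below 0.17 FPKM in both, Alb was at 0, and Cd68, Krt14 and Tubb3 were above 1 FPKM. In bulk RNA, fewer cells of a kind and less RNA per cell cannot be told apart.

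All 10 genes were well expressed in both libraries, and none differed by 1.5-fold. Cdk4 and Ccnd1 were the most abundant, and Rb1, Cdk6 and Ccnd2 were among the least. Ccnd1, Ccnd3, Cdk4, Cdk6 and Cdkn1b had higher FPKM in siLinc-Yy1, and Ccnd2, Ccne1, Cdkn2c, Rb1 and Rbl1 had lower FPKM. These directions are at the authors' scaling. With both libraries rescaled to equal summed FPKM, all 10 were lower. This rescaling moves the median of all genes from -0.021 to -0.31 on the log2 scale. It left only 1019 of the 11792 rows with a mean of at least 1 FPKM higher. The ratios of siLinc-Yy1 over siNC lay between 0.773 for Cdkn2c and 1.21 for Cdk4.

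**Figure D1:**
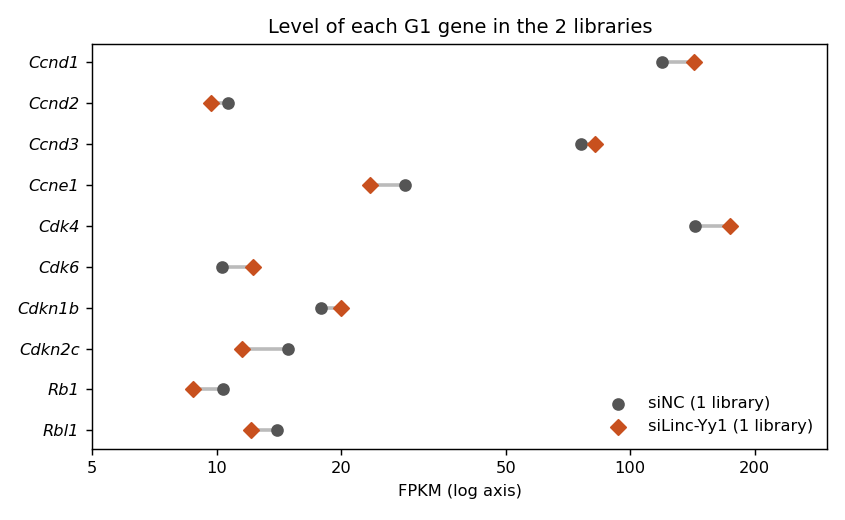
FPKM (log axis) of each of the 10 genes in the siNC library (circles) and the siLinc-Yy1 library (diamonds), 1 library each, joined by a grey line. Cdk4, Ccnd1 and Ccnd3 stand above 70 FPKM in both libraries, while the other 7 genes lie between 8.77 and 28.6 FPKM.

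The D-type cyclins were expressed at unequal levels. Ccnd1, cyclin D1, on chromosome 7 from 152115836 to 152125830 (mm9), stood at 119 FPKM (siNC) and 142 FPKM (siLinc-Yy1). Ccnd3, cyclin D3, on chromosome 17 from 47642000 to 47748441, measured 76.1 and 82.0 FPKM. Ccnd2, cyclin D2, on chromosome 6 from 127075727 to 127162437, was much lower at 10.6 and 9.68 FPKM. Ccnd1 and Ccnd3 were thus higher in siLinc-Yy1 at the authors' scaling (lower at equal summed FPKM) and Ccnd2 lower by either, each by less than 1.2-fold at the authors' scaling. The rows of Ccnd3 and Ccnd2 share their locus with other genes, Bysl (29.0 and 29.5 FPKM) and 9330179D12Rik (0.044 and 0.021 FPKM). Whether any reads had to be divided between these genes was not tested.

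The make-up of the D cyclin pool does not depend on a single scaling factor between libraries, but a trend with level can move it. Rows between 60 and 200 FPKM, as Ccnd1 and Ccnd3 are, had a median log2 difference of 0.22. The median was -0.054 between 8 and 25 FPKM, the level of Ccnd2. The part of this level trend in the shares was not tested. Ccnd1 made up 57.9% of the summed D cyclin FPKM in siNC and 60.8% in siLinc-Yy1, Ccnd3 36.9% and 35.04%, and Ccnd2 5.16% and 4.14%. The order was the same in both libraries, and no share moved by more than 2.90 percentage points. The summed level was 206 FPKM (siNC) and 234 FPKM (siLinc-Yy1), a ratio of 1.14.

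**Figure D2:**
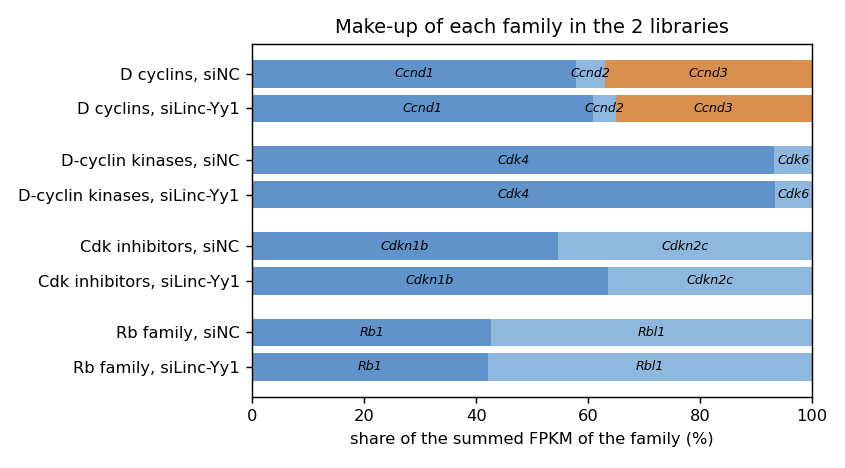
Share (%) of each gene in the summed FPKM of its family, with 1 bar for each library. The widest shift is between the inhibitors, where Cdkn1b goes from 54.6% in siNC to 63.5% in siLinc-Yy1, while the kinase and Rb family bars differ by less than 1 percentage point.

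Of the kinases that D cyclins activate, Cdk4 dominated. Cdk4, on chromosome 10 from 126500659 to 126504338, stood at 144 FPKM (siNC) and 175 FPKM (siLinc-Yy1), the highest level of the 10 genes in either library. Cdk6, on chromosome 5 from 3344312 to 3522225, measured 10.3 and 12.2 FPKM. Both kinases were higher in siLinc-Yy1 by a like ratio at the authors' scaling, 1.21 for Cdk4 and 1.18 for Cdk6, and both were lower at equal summed FPKM (-0.042 and -0.074 on the log2 scale). Cdk4 therefore held 93.3% and 93.5% of the kinase FPKM. Against rows of like level the kinases parted. Less a running median of rows in order of level, Cdk4 stood at -0.047 and Cdk6 at 0.30. The D cyclin sum stood at 1.34 times the kinase sum in siNC and at 1.25 times in siLinc-Yy1.

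The start regions of 7 of the 10 genes were in the RefSeq promoter table (build GRCm38.p6, 250 bases before to 50 after each start), with 9 windows in all. The Cdk4 window is shown because this gene had the highest level and because it held 4 copies of CACGTG, the palindromic E-box read by Myc and related factors. Of 32851 windows in the table, 7.15% held at least 1 copy and 0.0244% held at least 4. The other members with a copy were Cdk6 and Cdkn2c. The 250 bases before the Cdk4 start, at chr10:127063285-127063534 on the plus strand, read as follows, with the E-boxes in capitals.
Cdk4: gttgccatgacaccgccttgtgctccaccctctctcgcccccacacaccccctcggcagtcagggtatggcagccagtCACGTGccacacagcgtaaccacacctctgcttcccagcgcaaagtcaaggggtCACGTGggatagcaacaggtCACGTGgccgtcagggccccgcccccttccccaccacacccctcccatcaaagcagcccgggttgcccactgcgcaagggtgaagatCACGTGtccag

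Ccne1, cyclin E1, partner of Cdk2 and itself an E2F-driven gene, lies on chromosome 7 from 38883003 to 38892509. It stood at 28.6 FPKM (siNC) and 23.5 FPKM (siLinc-Yy1), a ratio of 0.824. Only 7.37% of the 11792 rows with a mean of at least 1 FPKM had a lower log2 difference than Ccne1. It was lower in siLinc-Yy1 at the authors' scaling (-0.27 on the log2 scale) and stood at -0.28 less the running median of rows in order of level. It was also lower at equal summed FPKM (-0.58) and after median centring (-0.25), but neither could have turned its sign. Equal summed FPKM shifts rows down by a log2 step of up to -0.32, and centring subtracts a median of only -0.021.

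The inhibitors differed in opposite directions at the authors' scaling, while both were lower at equal summed FPKM. Cdkn2c, the INK4 inhibitor, on chromosome 4 from 109333481 to 109337977, stood at 14.9 FPKM (siNC) and 11.5 FPKM (siLinc-Yy1). Its ratio of 0.773 was the lowest of the 10, and 3.29% of rows had a lower log2 difference. Cdkn1b, the Cip/Kip inhibitor, on chromosome 6 from 134870419 to 134875543, measured 17.9 and 20.02 FPKM, a ratio of 1.12. Cdkn1b was thus at 1.201 times the level of Cdkn2c in siNC and at 1.74 times in siLinc-Yy1, while the sum of the pair was 32.7 and 31.5 FPKM. The summed Cdk4 and Cdk6 level was 4.71 times that of the pair in siNC and 5.93 times in siLinc-Yy1. The pair leaves out other inhibitors, among them Cdkn1a, at 158 FPKM (siNC) and 224 FPKM (siLinc-Yy1), and Cdkn2d, at 19.4 and 12.3 FPKM. The ratio thus does not set the kinases against all inhibitor RNA. Cdk4 and the pair also differ in level, and the difference between libraries moved with level over all rows. The part of that trend in this ratio was not tested.

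The Cdkn1b window was the only member window with a match to the Yy1 motif GCCATNTT, which 6.05% of all windows held on either strand. It is shown because Linc-Yy1 takes its name from Yy1. The match lies from base 41 to base 48 of the transcript, and the 30 bases around it, at chr6:134920421-134920450 on the plus strand, read as follows with the motif in capitals.
Cdkn1b: tcgtcagcctcccttccaccGCCATATTgg

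The RNAs of the pocket proteins Rb1 and Rbl1 were in the lower part of the 10 genes and close to each other. Rb1, the retinoblastoma protein, on chromosome 14 from 73595309 to 73725598, stood at 10.4 FPKM (siNC) and 8.77 FPKM (siLinc-Yy1). Rbl1, its relative p107, on chromosome 2 from 156971630 to 157030270, measured 14.0 and 12.1 FPKM. Both were lower in siLinc-Yy1, with ratios of 0.845 and 0.864, and Rbl1 made up 57.4% and 57.9% of their sum. The locus of Rb1 also holds Lpar6 (4.95 and 3.89 FPKM) and Mir687, listed at 0. The D cyclin sum was 8.46 times the sum of Rb1 and Rbl1 in siNC and 11.2 times in siLinc-Yy1. Rbl2, a further member of the Rb family, at 11.0 and 11.3 FPKM, is not in this sum. Rows between 60 and 200 FPKM, as Ccnd1 and Ccnd3 are, had a median log2 difference of 0.22. The median was -0.054 between 8 and 25 FPKM, the level of Rb1 and Rbl1. The part of this level trend in the change of the ratio was not tested.

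Rbl1 was the only member whose window held an E2F motif, searched as TTTCCCGC, TTTCGCGC, TTTGGCGC or TTTGCCGC on either strand and present in 2.26% of all windows. It is shown because E2F is the factor that pocket proteins restrain. The match lies 18 to 11 bases before the start, and the 250 bases before the start, at chr2:157204535-157204784 on the minus strand, read as follows with the motif in capitals.
Rbl1: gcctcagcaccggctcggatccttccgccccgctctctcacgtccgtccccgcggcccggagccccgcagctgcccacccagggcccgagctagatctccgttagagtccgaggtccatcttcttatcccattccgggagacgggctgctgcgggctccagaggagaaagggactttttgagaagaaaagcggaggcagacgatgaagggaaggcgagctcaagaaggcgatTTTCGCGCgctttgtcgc

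Commoner elements were also searched, and the members held them as follows. The GC box GGGCGG was found in 6 of the 7 members and in 35.7% of all windows, and CCAAT in 3 members and 37.4% of windows. A member counts if any of its windows matched, and the 7 members have 9 windows. Member counts and shares of windows are thus not like for like. TATAAA was found in Cdk6 alone (13.6% of windows) and the forkhead motif GTAAACA in Ccnd3 alone (3.65%). No member window held the cAMP response element (TGACGTCA or TGACGTAA, 2.28% of all windows) or the cell cycle homology element (TTTGAA or TTCGAA, 19.2%). The serum response element was searched as a fixed string, which 0.0639% of all windows and no member window held. Other forms of this element were not searched. At these shares, an absence from 9 member windows sets the members apart in neither direction. A match is a description of the sequence and not a measured binding site.

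The order of levels was the same in both libraries for the first 5 genes, Cdk4, Ccnd1, Ccnd3, Ccne1 and Cdkn1b. With no replicates, a step between neighbours in this order was set against the larger of the between-library ratios of the pair. By this measure the steps from Ccnd1 to Ccnd3 (1.57-fold in siNC, 1.74-fold in siLinc-Yy1) and from Ccnd3 to Ccne1 (2.66-fold and 3.48-fold) were larger than the differences between libraries. The step from Cdk4 to Ccnd1 was 1.204-fold in siNC and 1.23-fold in siLinc-Yy1, about as large as the between-library ratio of Cdk4. Cdkn2c, Rbl1, Ccnd2, Rb1 and Cdk6 lay between 8.77 and 14.9 FPKM, and their order changed: Cdk6 was the lowest of the 10 in siNC and the sixth in siLinc-Yy1.

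No member was called different in the authors' deposited table, in which 1.62% of 14366 tested rows were called. The smallest p-value among the 10 in that table was 0.0706, for Cdkn2c, with a q-value of 0.662. Its statistics also give a range around each observed ratio. If each statistic is the log ratio over its modelled error, the 95% interval of the ratio ran from 0.584 to 1.02 for Cdkn2c and from 0.646 to 1.05 for Ccne1. It ran from 0.902 to 1.64 for Cdk4, 0.917 to 1.53 for Cdk6, 0.878 to 1.43 for Cdkn1b and 0.714 to 1.16 for Ccnd2. For Rb1 it ran from 0.644 to 1.11 and for Rbl1 from 0.655 to 1.14. The widest intervals were those of Ccnd1, 0.758 to 1.88, and Ccnd3, 0.693 to 1.67. All 10 intervals include a ratio of 1, and they rest on a spread that the authors' program modelled, not on replicates, so they do not show that levels were equal.

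**Figure D3:**
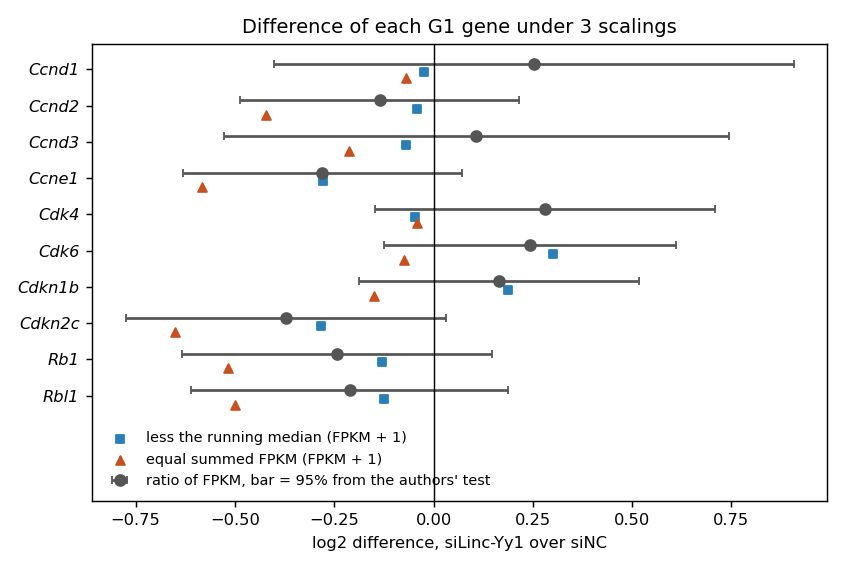
Log2 difference of siLinc-Yy1 over siNC for each gene: the FPKM ratio with its 95% interval from the authors' test (circles and bars), the value less the running median of genes of like level (squares) and the value at equal summed FPKM (triangles). All bars cross 0, and Ccnd2, Ccne1, Cdkn2c, Rb1 and Rbl1 lie below 0 by all 3 measures.

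Among the 11792 rows with a mean of at least 1 FPKM, with 1 FPKM added to each value, 1.57% differed by at least 2-fold and 3.8% by at least 1.5-fold. None of the 10 genes did either. At background shares this small, a count of 0 in 10 genes sets them apart in neither direction. The median log2 difference of the 10 was -0.0086, with 5 higher and 5 lower, beside a median of -0.021 over all rows, of which 45.4% were higher. The range of the members, -0.35 to 0.28, lay inside the central 95% of all rows, -0.38 to 0.71.

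The difference between the libraries moved with the level of a gene, and the members followed it in part. Of 1127 rows between 60 and 200 FPKM, 94.1% were higher in siLinc-Yy1, with a median log2 difference of 0.22. Cdk4 (0.28), Ccnd1 (0.25) and Ccnd3 (0.11) are among these rows. Less a running median that takes in 150 rows on each side in order of level, they stood at -0.047, -0.023 and -0.069, so their higher FPKM was no greater than that of genes of like abundance. Of 4025 rows between 8 and 25 FPKM, only 33.6% were higher, with a median of -0.054. Among the 6 members at this level, Cdk6 (0.22) and Cdkn1b (0.16) were higher and stood at 0.30 and 0.19 less the running median. Cdkn2c (-0.35), Rb1 (-0.22), Rbl1 (-0.20) and Ccnd2 (-0.12) stood at -0.28, -0.13, -0.13 and -0.042, and Ccne1 (-0.27) at -0.28. The part of this level trend in the members' differences was not tested.

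**Figure D4:**
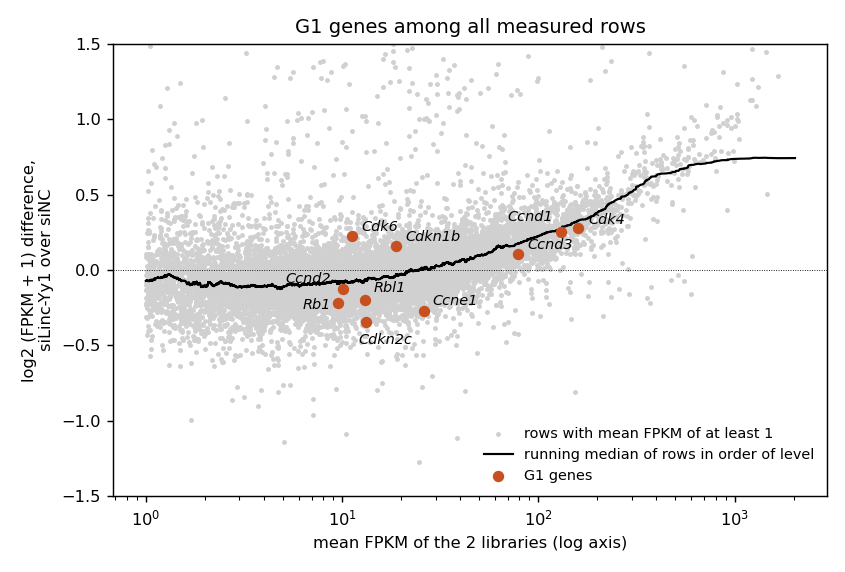
Log2 (FPKM + 1) difference of siLinc-Yy1 over siNC against mean FPKM (log axis) for rows with a mean of at least 1 FPKM, with the 10 G1 genes in orange and the running median as a line; 77 rows beyond the axis limits of 1.5 are not drawn. Cdk4, Ccnd1 and Ccnd3 sit on the line, Cdk6 and Cdkn1b above it, and Ccne1 and Cdkn2c furthest below it.

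Other genes of the same machinery were close to the members in size of difference. Of 102 gene names in 9 lists of the G1 and cell cycle machinery, 101 had a row and 97 a mean of at least 1 FPKM. Of these, 47 were higher and 50 lower in siLinc-Yy1, with a median log2 difference of -0.017, and the authors' deposited table called none. At equal summed FPKM only Cdkn1a of the 97 was higher, beside 1019 of all 11792 rows. The counts of higher and lower genes below therefore hold at the authors' scaling alone. The only gene past 1.5-fold at that scaling was Cdkn2d, an INK4 inhibitor like Cdkn2c, at 19.4 FPKM (siNC) and 12.3 FPKM (siLinc-Yy1). It was lower than all but 0.432% of rows, beside 0.517% of rows at least 1.5-fold lower, and its ratio was 0.636. Cdkn1a, the Cip/Kip inhibitor induced by p53, was the most abundant inhibitor, at 158 and 224 FPKM, and stood at 0.14 less the running median. Cdkn3 measured 19.7 and 18.5 FPKM. The INK4 genes Cdkn2a (0.087 and 0.126 FPKM) and Cdkn2b (listed at 0, and 0.016 FPKM) were below the filter. Rbl2, the third pocket protein, measured 11.0 and 11.3 FPKM, a level near those of Rb1 and Rbl1.

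Partners and regulators of cyclin E were mixed. In the Cdk2 module, 3 of 5 measured genes were lower and 2 higher. Ccne2, cyclin E2, measured 10.3 and 8.30 FPKM, Cdk2 26.5 and 22.5 FPKM, and Cdc25a, the phosphatase that activates Cdk2, 10.9 and 8.40 FPKM. Ccna2, cyclin A2, measured 68.0 and 76.1 FPKM, or 0.0016 on the log2 scale less the running median. The Cdk-activating kinase subunits were close in both libraries: Ccnh at 13.6 and 11.9 FPKM, Cdk7 at 5.30 and 4.91 FPKM and Mnat1 at 17.7 and 18.8 FPKM. Of 15 measured ubiquitin ligase genes that act on G1 regulators, 7 were higher and 8 lower. Skp2, which marks the Cdkn1b protein for destruction, measured 13.2 and 10.7 FPKM, and its cofactor Cks1b 136 and 168 FPKM. Skp1a (68.5 and 84.6 FPKM) and Ddb1 (156 and 184 FPKM) were, like Cks1b, higher in siLinc-Yy1 at the authors' scaling, but less the running median Cks1b and Ddb1 stood at -0.013 and -0.099.

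E2F factors, which the pocket proteins bind, were mixed, with 4 of 10 higher and 6 lower. E2f2 measured 10.8 and 8.05 FPKM and E2f3 9.15 and 7.58 FPKM, and a further activator, E2f1, 27.4 and 30.8 FPKM. E2f4 and E2f5, which work mainly with pocket proteins in repression, measured 47.7 and 55.3 FPKM and 10.9 and 9.50 FPKM, so each kind held genes on either side. Tfdp1, their dimer partner, was at 99.2 and 105 FPKM. In the DREAM and MuvB list 3 of 7 were higher and 4 lower, with Lin52 at 5.35 and 4.11 FPKM, Lin9 at 9.44 and 8.03 FPKM and Rbbp4 at 52.6 and 59.2 FPKM. Of 20 classical E2F targets 10 were higher and 10 lower. Orc1 (5.43 and 4.28 FPKM), Pola1 (9.95 and 8.14 FPKM) and Cdc6 (12.0 and 9.97 FPKM) were lower, and Pcna (149 and 165 FPKM) higher. Less the running median, 19 of the 20 lay below 0, beside 49.7% of all rows, with a list median of -0.11.

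Of 10 genes of proliferation and mitosis, 8 were higher and 2 lower, and all 10 lay below 0 less the running median, with a median of -0.14. Birc5 measured 116 and 129 FPKM, Aurka 57.5 and 63.4 FPKM and Bub1 17.0 and 13.3 FPKM. Of 22 cyclins and kinases that act outside G1, 10 were higher and 12 lower. Among them Cdk16 (59.9 and 73.5 FPKM) and Cdk11b (70.9 and 81.3 FPKM) were higher, and Ccnc (12.7 and 10.4 FPKM) and Cdk5r1 (2.68 and 2.17 FPKM) lower. Of 9 measured myotube markers 6 were higher and 3 lower at the authors' scaling, and some differed more than any of the 10 G1 genes. Ckm measured 14.5 and 24.9 FPKM, Tnnt3 31.9 and 52.3 FPKM, Myh4 6.86 and 11.1 FPKM and Acta1 78.0 and 91.3 FPKM. Lower were Myog (22.8 and 19.4 FPKM), Tmem8c (11.4 and 9.08 FPKM) and Myh3 (3.08 and 1.85 FPKM). Calls in the authors' deposited table among these markers were Ckm and Myh4, both higher, and Myh3, lower. The summed level of the myotube markers was 174 and 218 FPKM, and 218 in each library at equal summed FPKM. That of the 6 myoblast markers was 659.9 and 858 FPKM, mostly through Des (322 and 487 FPKM), or 825 and 858 at equal summed FPKM. Of the other myoblast markers, Itga7 measured 117 and 139 FPKM and Myf5 18.8 and 21.9 FPKM. The 10 markers of other cell types, nearly all from Tubb3 (117 and 152 FPKM), summed to 126 and 161 FPKM, or 158 and 161 at equal summed FPKM. Their part in the levels of the G1 genes was not tested.

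**Figure D5:**
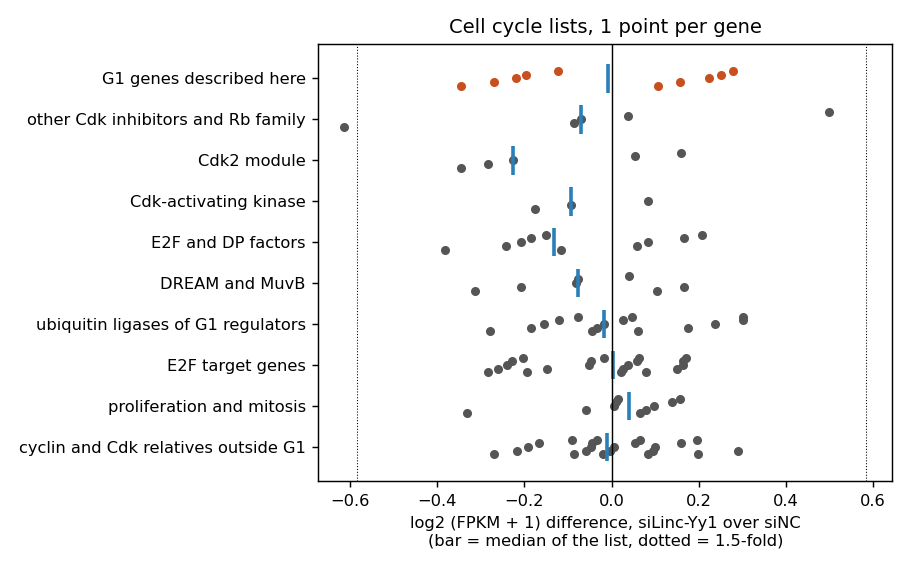
Log2 (FPKM + 1) difference of siLinc-Yy1 over siNC for each gene with a mean of at least 1 FPKM, 1 row of points for each cell cycle list (cell type markers are not drawn), with the list median as a bar and 1.5-fold as dotted lines. The 10 G1 genes (orange, top) spread from -0.35 to 0.28, and of the genes drawn Cdkn2d alone lies beyond a dotted line.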

How the data were processed

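RNA-seq of 2 C2C12 libraries, siNC and siLinc-Yy1, came as 1 gene-level Cuffdiff table in 2 identical copies. The FPKM values were estimated per gene and condition by the authors, per the file headers, as were the p-value and q-value columns of the authors' test. Per the submitters' processing notes, the build was mm9 and the RNA-seq tools include Cuffdiff 2.0.4, Cufflinks 2.1.1 and TopHat2 2.0.4. Annotation, use of strand and scaling between libraries: not given in the sources used here. The first FPKM column was read as siNC and the second as siLinc-Yy1, the order of conditions in the header. Loci were converted to count from 1.

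To each FPKM 1 was added and the log2 difference taken as siLinc-Yy1 minus siNC, a scale that understates changes of low genes, over rows with a mean of at least 1 FPKM. With 1 library per condition no test was run, and sizes of 2-fold and 1.5-fold were counted. Each modelled error is the deposited log2 ratio over the deposited statistic, whose two-sided normal p matched the deposited p within 2.83e-06 in 14288 rows. Depth was read from the step of 1 fragment in 1206 receptor rows under 1300 bases, without length correction, so fragment numbers are approximate. The genes and lists were chosen with earlier results of these data known. All 10 members are named, and in each other list the 3 largest differences and the highest level; Cdkn2a, Cdkn2b, Rbl2, E2f1, E2f5, Myod1, Myog, Tmem8c, Myh3 and Alb were added after their values were seen. No gene of like pattern was sought, since 2 libraries give 1 difference. Alternatives were to add 0.1 or 5 FPKM, to drop the filter or raise it to 5 FPKM, to keep status OK rows alone, to equalise summed FPKM, to centre on the median and to subtract the running median. Scripts used Python 3.11.15 with numpy 2.4.6, pandas 2.3.3, scipy 1.17.1 and matplotlib 3.10.9, and were tested on simulated data.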

Additional observations from a re-analysis of the deposited data

How the results depend on the processing

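Median centring, equal summed FPKM and subtraction of the running median can turn a gene's sign, while other pseudocounts and filters cannot. Ccnd2, Ccne1, Cdkn2c, Rb1 and Rbl1 were lower in siLinc-Yy1 under all 3. For these genes, only subtraction of the running median could have turned the sign. Equal summed FPKM shifts rows down, and centring subtracts a median of only -0.021, less than any of their differences. Equal summed FPKM turned Ccnd1, Ccnd3, Cdk4, Cdk6 and Cdkn1b to lower (-0.069, -0.21, -0.042, -0.074 and -0.15). It left 0 members higher, beside 1019 of the 11792 rows with a mean of at least 1 FPKM. It also moved the member median to -0.32, beside -0.31 over all rows, and put 1 member, Cdkn2c, past 1.5-fold. Subtraction of the running median turned Ccnd1, Ccnd3 and Cdk4 (-0.023, -0.069 and -0.047) and left 2 members higher, beside 5889 of the 11792 rows. No setting put a member past 2-fold. Over all rows, 164 were at least 2-fold higher and 21 lower, against 109 and 7 with a pseudocount of 5 FPKM, 96 and 44 at equal summed FPKM, 39 lower with no filter and 7 lower at a mean of at least 5 FPKM. Adding 1 FPKM to each member moved no family share by 1 percentage point. No paired analysis was possible because each condition has 1 library. Depth sets counting error alone; the spread between cultures was not measured.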
